A study of Mus musculus with 18 samples.

Results

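Mouse nomenclature gives a noncoding gene the ending "os", for opposite strand, when it lies on the other DNA strand from a coding gene whose name it borrows: Med9os runs against Med9. In the deposited table of long noncoding loci from mouse testis, 290 of 13218 rows (2.19%) carried such a name and form the set described here. They were chosen by name alone, as names that end in "os" or in "os" and a number, and 3 further genes with that ending, Dnm3os, Appbp2os and Epb41l4aos, were left out by the rule. The 290 rows hold 288 identifiers, since Mypopos and Uchl1os stand on 2 rows each. Levels are in FPKM, the number of sequenced fragments divided by transcript length and library size. With a line drawn at 1 FPKM in 3 or more libraries, 125 of the 290 (43.1%) were above the line, against 4117 of all 13218 loci (31.1%).

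The samples were germ cells from testes of ICR mice, an outbred strain, with no genetic change or treatment named in the labels. Cells were separated by STA-PUT, a sedimentation method that sorts cells mostly by size. The labels give 6 types with 3 libraries each: priSG-A at postnatal day 6, priSG-B at day 9, plpSC at day 14, pacSC at day 21, rST at day 35 and elST at day 56. The labels leave these names unexplained; SG, SC and ST commonly abbreviate spermatogonia, spermatocytes and spermatids, the mitotic, meiotic and haploid stages of sperm formation. The series' design text speaks of sequencing in duplicate, whereas 3 numbered samples are listed for each type, and the labels do not settle this. Whether the 3 libraries of a type came from separate mice or pools is not given in the sources used here, so p-values reflect variation among these libraries alone, and it may be technical.

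Opposite-strand transcripts arise in several ways. Some start beside the promoter of a coding gene and run away from it, so that 1 open stretch of chromatin serves both; others start inside or beyond the coding gene and run through its exons or introns, where the paired RNAs can in principle form duplexes or their polymerases can interfere. Testis is known for the broad transcription of such loci, mainly in meiotic and haploid cells, and for most of them no function is established. The library kit (Illumina TruSeq RNA) does not keep strand, so where the exons of an opposite-strand gene and its coding partner overlap, reads of one cannot be told from reads of the other.

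The annotated positions matched the names closely. The names are themselves given by position, so this match was largely built in and is a description only. Of the 290 rows, 289 were found by identifier in the GENCODE M21 annotation of the same mm10 assembly, and 259 of these had the type antisense, 14 processed transcript, 11 lincRNA, 3 bidirectional promoter lncRNA and 2 TEC (a locus still to be tested experimentally). For 287 rows both the member and the gene it is named after could be placed, and all 287 partners were protein coding and on the other strand. The exceptions were Etos1 and Snhg7os, for which M21 holds no coding gene of that name on the chromosome, and Cdr1os, whose identifier is not in M21. Exons of the member and its partner overlapped in 162 of 289 rows (56.1%). In 79 (27.3%) the gene bodies overlapped without a shared exon, in 31 (10.7%) the genes lay head to head with starts within 1 kb and no overlap, and in 15 (5.19%) they lay apart.

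**Figure D1:**
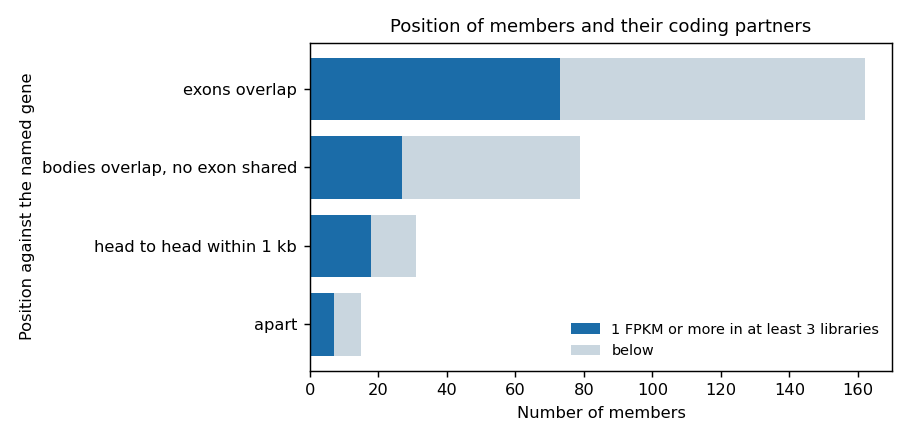
Number of members (x axis) by position against the coding gene they are named after (y axis), split into members above and below the line of 1 FPKM in 3 libraries. Exon overlap is the commonest arrangement, with 162 members, of which 73 pass the line, and 18 of the 31 head-to-head members pass it.

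Members above the line were spread over all 4 arrangements. They made up 58.1% of the head-to-head members (18 of 31), 45.1% of those with overlapping exons (73 of 162), 46.7% of those lying apart (7 of 15) and 34.2% of those that overlap in body only (27 of 79). The exons of 41 of the 125 (32.8%) shared no base with any other annotated gene, and for these 41 reads cannot come from a neighbour's annotated exons. Their mean FPKM over the 18 libraries had a median of 1.97, and it was 2.20 in the 84 that share exon bases with another gene. The most abundant member, Med9os, was among the 41, and the next, Kcnmb4os1, was among the 84.

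For 79 of the 125, RefSeq (build GRCm38.p6) holds promoter windows of 250 bases before to 50 after the start, and in 24 of the 79 the start of the coding partner lay inside the window. The following 5 were picked by hand from these 24, for members also described below. The short stretch between the opposed starts can be read from them. Each is written 5′ to 3′ on the member's strand, with 25 bases of flank on each side and, in capitals, the bases from the partner's start to the member's start. Med9os and Med9 start 59 bases apart (chr11:59948122-59948231, minus strand), Arl4aos and Arl4a 52 (chr12:40038000-40038102, plus), Etaa1os and Etaa1 95 (chr11:17953850-17953995, plus), Stamos and Stam 164 (chr2:14073909-14074123, minus), and Saxo1os and Saxo1 116 (chr4:86558303-86558469, plus).
Med9os: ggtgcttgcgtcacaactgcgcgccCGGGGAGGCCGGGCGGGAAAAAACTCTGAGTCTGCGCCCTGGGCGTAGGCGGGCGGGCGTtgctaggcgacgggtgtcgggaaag
Arl4aos: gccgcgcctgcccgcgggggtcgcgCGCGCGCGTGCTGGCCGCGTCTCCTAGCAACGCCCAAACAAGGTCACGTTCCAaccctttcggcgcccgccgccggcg
Etaa1os: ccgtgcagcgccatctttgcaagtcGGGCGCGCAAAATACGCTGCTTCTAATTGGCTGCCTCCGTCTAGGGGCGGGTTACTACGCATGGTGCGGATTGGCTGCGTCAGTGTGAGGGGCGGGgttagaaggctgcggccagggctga
Stamos: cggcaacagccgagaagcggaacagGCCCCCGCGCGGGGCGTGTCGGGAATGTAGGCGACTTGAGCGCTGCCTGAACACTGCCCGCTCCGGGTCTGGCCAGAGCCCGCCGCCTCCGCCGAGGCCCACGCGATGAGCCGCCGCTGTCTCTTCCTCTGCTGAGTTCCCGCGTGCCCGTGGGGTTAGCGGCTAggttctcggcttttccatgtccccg
Saxo1os: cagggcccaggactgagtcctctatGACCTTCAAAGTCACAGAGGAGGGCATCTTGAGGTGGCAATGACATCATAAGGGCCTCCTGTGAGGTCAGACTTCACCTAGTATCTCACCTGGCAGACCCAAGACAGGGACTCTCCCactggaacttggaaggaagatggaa
The first 4 windows were rich in CpG, with 30, 55, 25 and 32 CpG in the whole 300 bases, whereas the window of Saxo1os held 3. Saxo1os was not alone in this. Over the 24 members with the partner's start inside, windows ran from 2 CpG in Usp46os2 to 55 in Arl4aos, with 4 in Hmgb4os and Ccdc42os. The median over all 32851 RefSeq windows was 7 CpG, and over the 94 windows of the 79 members it was 6.

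A further pair of windows is shown for Rab26os and Oip5os1, which were highest in priSG-B and do not start beside their partner. Whether start position goes with the course through the libraries was not tested. Phtf1os, which starts 50 bases from its partner, was also higher in priSG-B than in priSG-A and plpSC. Here the whole window is given and capitals mark the 50 bases from the start on (Rab26os, chr17:24528001-24528300, and Oip5os1, chr2:119594046-119594345, both on the plus strand).
Rab26os: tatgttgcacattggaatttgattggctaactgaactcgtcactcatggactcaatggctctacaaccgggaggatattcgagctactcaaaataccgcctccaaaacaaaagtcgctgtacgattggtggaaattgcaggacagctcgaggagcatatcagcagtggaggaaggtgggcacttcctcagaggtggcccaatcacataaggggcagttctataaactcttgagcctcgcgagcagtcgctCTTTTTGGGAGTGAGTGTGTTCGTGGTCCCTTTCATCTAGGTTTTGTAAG
Oip5os1: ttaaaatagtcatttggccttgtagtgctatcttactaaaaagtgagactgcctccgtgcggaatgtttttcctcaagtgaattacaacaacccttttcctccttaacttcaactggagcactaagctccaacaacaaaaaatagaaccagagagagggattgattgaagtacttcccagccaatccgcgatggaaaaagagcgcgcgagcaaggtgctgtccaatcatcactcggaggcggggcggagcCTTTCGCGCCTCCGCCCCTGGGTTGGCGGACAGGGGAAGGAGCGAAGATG
Short motifs were counted on both strands in the 94 windows of members above the line and in all 32851. The 94 belong to 79 members, and some windows of the same member overlap. TGACGTCA, the cAMP response element bound by CREM in spermatids, was in 1 of the 94 windows (1.06%) against 1.79% of all. The MYB motifs TAACNG and CAACNG were in 25.5% against 23.3% and in 36.2% against 35.0%, the RFX half-site GTTGCC in 12.8% against 12.5%, TATAAA in 7.45% against 13.6% and GGGCGG in 26.6% against 35.7%. The MYB motifs can overlap each other, and a match is a run of letters, not a bound site.

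Before the levels are compared, the libraries themselves need description, because several did not resemble others with the same label. Depth, inferred from the steps between low FPKM values, was 31.7 to 92.2 M (mega) fragments. The inference shortened each transcript by the fragment length, inferred as 199 to 268 bases. A transcript of 1 kb at 1 FPKM therefore rests on fewer fragments than the 31.7 to 92.2 that its full length would give. Over the 125 members above the line, the closest library by Pearson's r of log2(FPKM + 1) carried another label for 14 of 18 libraries (members are not independent replicates). The 3 priSG-B libraries were closest to each other, while elST replicate 3 was closest to pacSC replicate 1 (r = 0.99), plpSC replicate 3 to elST replicate 2 (r = 0.98) and rST replicate 1 to elST replicate 1 (r = 0.94). The lowest r within a type was -0.15. The ribosomal RNA-derived locus AY036118 stood at 7.25 to 36.2 FPKM in 6 libraries (all priSG-B, pacSC replicates 1 and 2, elST replicate 3) and at 1998 to 13911 FPKM in the other 12, and the same 6 were the deepest. None of 38 coding marker genes for germ and somatic testis cells stands in this table of noncoding loci, so the type labels could not be checked against markers. In bulk libraries, more cells of a type and more RNA per cell cannot be told apart.

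The number of opposite-strand members detected followed these library differences. Between 32 and 46 of the 290 were at 1 FPKM or more in priSG-A replicates 1 and 2 (41 and 37), the 3 priSG-B libraries (32, 36 and 33), plpSC replicates 1 and 2 (35 and 37), rST replicate 1 (39) and elST replicate 1 (46). In plpSC replicate 3 (100), pacSC (99, 99 and 104), rST replicates 2 and 3 (98 and 93) and elST replicates 2 and 3 (104 and 100) the number lay between 93 and 104. PriSG-A replicate 3 stood between them, at 83. All loci of the table moved alike, with 1342 to 1695 loci at 1 FPKM in the first 9 libraries and 2491 to 2866 in the next 8. Library makeup was not separated from cell type in these counts.

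**Figure D2:**
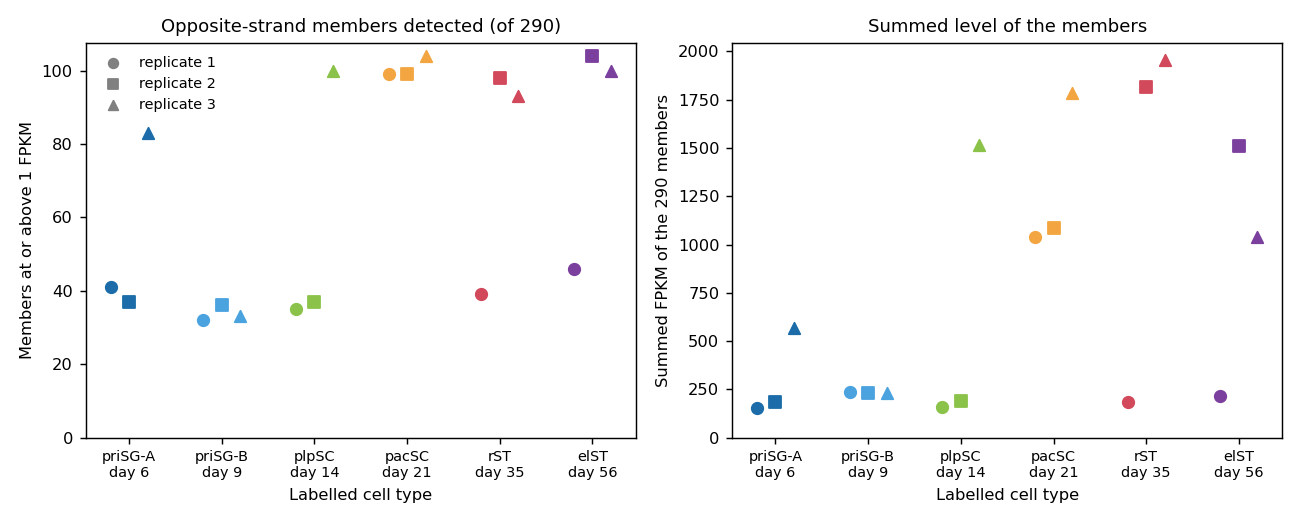
Left, number of the 290 members at or above 1 FPKM in each library; right, their summed FPKM; x axis, labelled cell type with postnatal day, 1 point per library, with the marker giving the replicate. The priSG-B libraries lie together at 32 to 36 members, while plpSC, rST and elST each hold both low and high libraries.

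The summed level of the 290 differed more than their number. It was 155 to 234 FPKM in the 9 libraries with few members, 570 FPKM in priSG-A replicate 3, and 1037 FPKM (elST replicate 3) to 1956 FPKM (rST replicate 3) in the other 8. The 12 members with the highest mean gave 22.9 to 40.7% of that sum in the first 9 and 47.6 to 52.5% in the last 8. They were ranked by their mean over these same 18 libraries, so a larger share in the libraries with high sums is partly built in. Among the 125, the library with the highest value was pacSC replicate 3 for 29, rST replicate 3 for 21, pacSC replicate 2 for 13 and rST replicate 2 for 12, and any of the 3 priSG-B libraries for 4, 3 and 3. The same was not counted over all loci. The median of all 4117 loci above the line also differed, at 2.04 FPKM in pacSC replicate 3, 1.56 in rST replicate 3 and 0.323 in priSG-B replicate 1. Members could also pass the line through such high libraries alone.

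**Figure D3:**
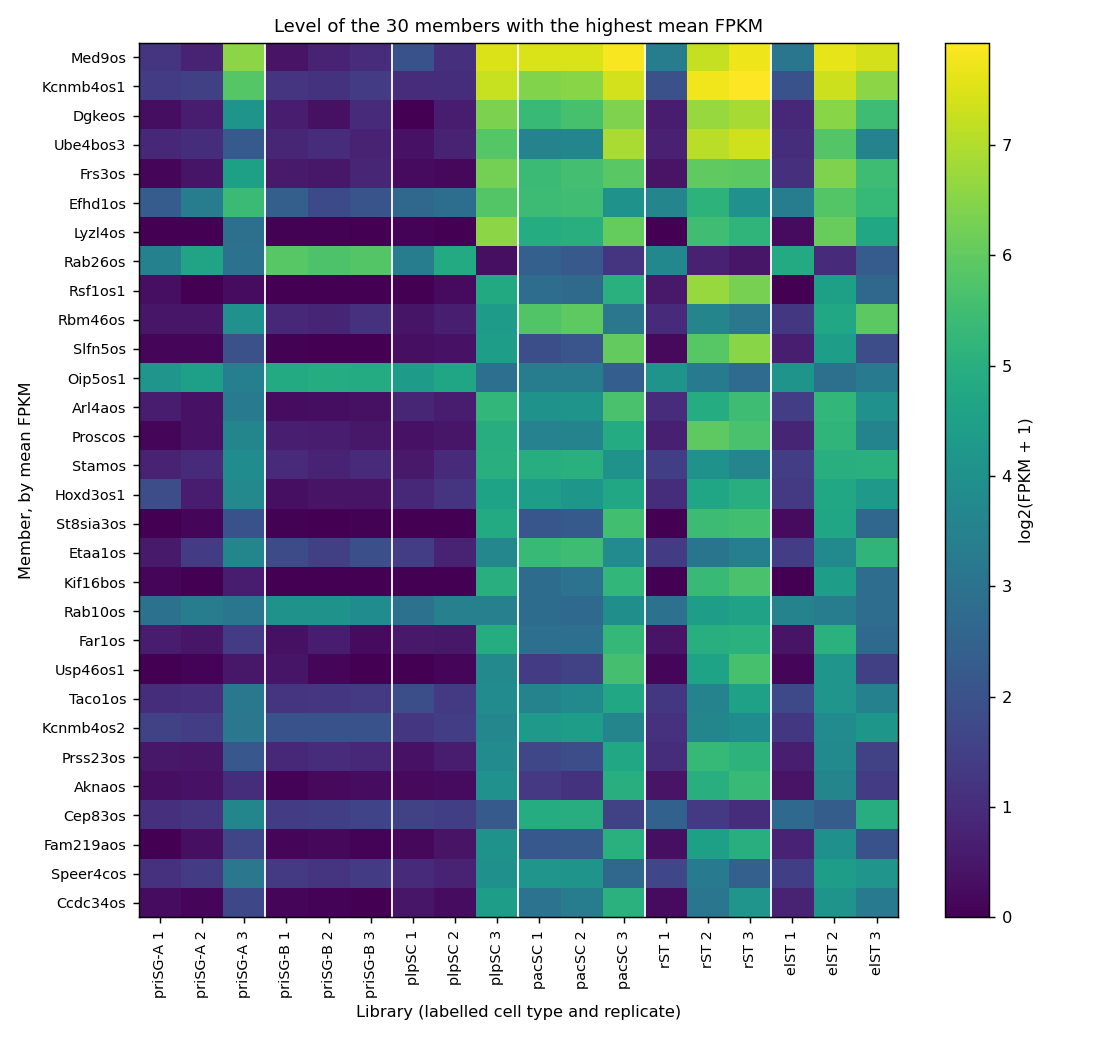
Level, as log2(FPKM + 1) by colour, of the 30 members with the highest mean FPKM (rows, ordered by mean) in the 18 libraries (columns, white lines between types). Most rows are bright in plpSC replicate 3, the pacSC libraries, rST replicates 2 and 3 and elST replicates 2 and 3, while Rab26os is brightest in the 3 priSG-B libraries.

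Of the members named after signalling, membrane and channel genes, Kcnmb4os1 was the most abundant. It lies opposite Kcnmb4 (chromosome 10, 116418052 to 116421237), which encodes an accessory subunit of the calcium-activated BK potassium channel, and 355 of its 824 exon bases are shared with Kcnmb4. Kcnmb4os1 stood at 1.60, 1.84 and 56.5 FPKM in priSG-A replicates 1, 2 and 3, at 1.27, 1.23 and 1.66 in priSG-B, at 1.02, 1.03 and 153 in plpSC, at 85.3, 91.4 and 165 in pacSC, at 2.94, 215 and 242 in rST and at 3.01, 157 and 92.1 in elST. Values within priSG-A, plpSC, rST and elST thus ranged from a few FPKM to 56.5 FPKM or more, and only priSG-B (low) and pacSC (high) were of 1 kind. Reads in the shared bases cannot be told from those of Kcnmb4.

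Dgkeos, opposite the lipid kinase gene Dgke (chromosome 11, 89064729 to 89069098), is listed at 0 in plpSC replicate 1 and stood at 81.2 FPKM in plpSC replicate 3, at 40.5, 47.7 and 83.9 in pacSC, at 0.569, 104 and 117 in rST and at 0.857, 90.3 and 43.4 in elST. It was at or below 0.930 FPKM in all 3 priSG-B libraries. Frs3os, opposite the FGF receptor adaptor gene Frs3 (chromosome 17, 47699971 to 47701996), had the same high and low libraries: 0.181, 0.135 and 76.2 FPKM in plpSC, 41.5, 46.3 and 58.2 in pacSC, 0.339, 62.2 and 60.05 in rST and 1.10, 82.1 and 42.8 in elST. Efhd1os, opposite the mitochondrial calcium-binding gene Efhd1, was less extreme, at 2.42 to 4.33 FPKM in priSG-B and 15.7 to 44.03 in pacSC.

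Arl4aos and Stamos share a promoter region with Arl4a, a small GTPase gene, and Stam, an adaptor of endosomal sorting, in the windows printed above. Arl4aos (chromosome 12, 40038099 to 40040027) had 0.189, 0.232 and 0.275 FPKM in the priSG-B libraries, below every other library, and 15.3, 16.1 and 49.1 FPKM in pacSC. For Stamos (chromosome 2, 14070332 to 14073934) the priSG-B values were 0.975, 0.718 and 0.962 FPKM, with 29.4, 31.6 and 15.6 in pacSC and 1.77, 15.7 and 11.2 in rST. Neither shares an exon base with another gene. Kif16bos, 1434 bases from the start of the endosomal kinesin gene Kif16b, is listed at 0 in 8 libraries, every priSG-B library among them, and reached 48.9 FPKM in rST replicate 3.

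The small GTPase genes Rab26 and Rab10, which act in vesicle traffic, have opposite-strand members that behaved differently from those above. Rab26os (chromosome 17, 24528248 to 24528744) is a single exon of 497 bases inside Rab26, and 78 of those bases are shared with the small nucleolar RNA gene Snord60 on the same strand. It stood at 57.3, 50.9 and 55.5 FPKM in priSG-B, above all other 15 libraries. In priSG-A it was at 10.1, 23.5 and 6.85 FPKM, in plpSC at 8.97, 27.8 and 0.251, in pacSC at 4.34, 3.65 and 1.32, in rST at 11.9, 0.672 and 0.405, and in elST at 27.5, 0.963 and 3.90. The 9 libraries lowest in Rab26os were the 9 highest in Kcnmb4os1. Rab10os was among the flattest members, at 5.56 to 22.5 FPKM in all 18 libraries.

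Of the members named after genes of metabolism, RNA and protein handling, Med9os was the most abundant of all 290. Its partner Med9 encodes a subunit of Mediator, the complex that links transcription factors to RNA polymerase II. Med9os (chromosome 11, 59946889 to 59948142, minus strand, 2 exons, 527 exon bases) stood at 1.33, 0.722 and 92.5 FPKM in priSG-A, at 0.333, 0.686 and 0.992 in priSG-B, at 2.96, 1.09 and 180.2 in plpSC, at 176, 178 and 232 in pacSC, at 9.31, 149 and 211 in rST and at 7.58, 198 and 171 in elST. PriSG-B and pacSC did not overlap, while each of the other types held a library below 10 FPKM and one above 90.

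Ube4bos3, opposite the ubiquitin chain elongation gene Ube4b, was highest in rST replicates 2 and 3 (138 and 162 FPKM) and pacSC replicate 3 (119), with 10.6 and 11.4 FPKM in pacSC replicates 1 and 2. Usp46os1, Far1os, Proscos, Prss23os and St8sia3os, opposite genes for a deubiquitinase, a fatty acyl-CoA reductase, a pyridoxal phosphate-binding protein, a serine protease and a sialyltransferase, also had more in pacSC replicate 3 than in pacSC replicates 1 and 2. For Usp46os1 the 3 pacSC values were 1.68, 1.91 and 46.8 FPKM, and for Far1os they were 6.44, 6.39 and 38.1. Taco1os, opposite the gene of a mitochondrial translation activator, was at 1 FPKM or more in every library, from 1.05 to 25.6.

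Among the members named after genes with known roles in the germ line, Rbm46os runs away from Rbm46, which encodes an RNA-binding protein needed for meiosis, with starts 222 bases apart (chromosome 3, 82876705 to 82943638). It stood at 0.839, 0.773 and 1.18 FPKM in priSG-B, at 0.378, 0.586 and 19.9 in plpSC, at 53.6, 61.3 and 7.91 in pacSC, at 0.982, 11.1 and 7.80 in rST and at 1.43, 25.8 and 59.7 in elST. PacSC replicates 1 and 2 and elST replicate 3, the libraries low in AY036118 besides priSG-B, were the highest 3. Lyzl4os, inside the sperm lysozyme-like gene Lyzl4 (chromosome 9, 121586997 to 121614255), went from 0.0377 FPKM or less in priSG-B to 29.00, 30.6 and 64.9 FPKM in pacSC, and reached 91.95 FPKM in plpSC replicate 3.

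Ccdc34os, inside a gene needed for the sperm tail, stood at 0.0158 to 0.0667 FPKM in the priSG-B libraries and 7.10, 9.22 and 32.4 in pacSC. Speer4cos, opposite a member of the spermatogenesis-associated Speer family whose near-identical copies make its counts uncertain, stood at 1.26 to 1.63 FPKM in the priSG-B libraries and 16.5, 16.2 and 5.35 in pacSC. Saxo1os, beside the gene of a microtubule protein of sperm tails and cilia, has listed values of 0 throughout priSG-B and stood at 6.51, 7.96 and 7.60 FPKM in the pacSC libraries and 0, 41.2 and 14.3 in rST. Lyzl4os, Ccdc34os and Saxo1os share no exon base with another gene.

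**Figure D4:**
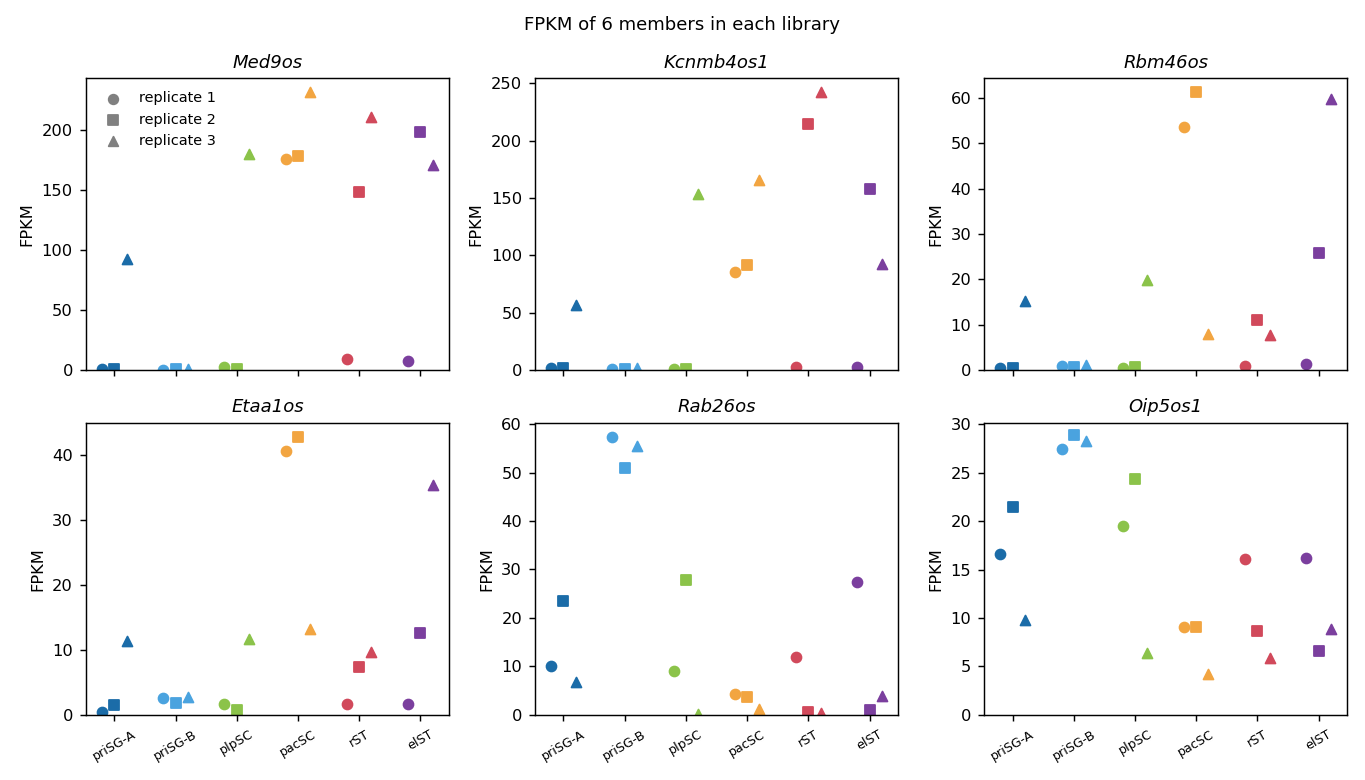
FPKM (y axis, linear, from 0) of 6 members in each library, by labelled type (x axis), with the marker giving the replicate. Med9os and Kcnmb4os1 are highest in 8 libraries and next highest in priSG-A replicate 3. Rbm46os and Etaa1os are highest in pacSC replicates 1 and 2 and elST replicate 3, and Rab26os and Oip5os1 are highest in the 3 priSG-B libraries.

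By a list of gene name beginnings, 48 members were grouped as named after developmental transcription factors. The list includes the general beginning Zfp, not limited to such factors (Zfp335os, Zfp85os and Zfp286os above the line, Zfp652os below), so the group is a broad one. Of the 48, 14 (29.2%) were above the line, against 111 of the other 242 (45.9%). The most abundant was Hoxd3os1 (chromosome 2, 74703248 to 74716130), in the HoxD cluster that patterns the body axis, at 0.264, 0.327 and 0.336 FPKM in the priSG-B libraries and 20.6, 17.3 and 25.3 in pacSC. Hoxb5os has a listed value of 0 throughout priSG-B, and stood at 8.08, 8.27 and 0.319 FPKM in the pacSC libraries and 6.35 in elST replicate 3. Lef1os1, opposite a mediator of Wnt signalling, had the same 3 libraries highest, with 18.96 and 21.05 FPKM in pacSC replicates 1 and 2 and 19.1 in elST replicate 3. Dlx6os1, known as Evf2 in the developing forebrain, stood at 4.02, 4.53 and 7.25 FPKM in the pacSC libraries and no more than 0.127 in priSG-B. Wt1os, which starts 19 bases from Wt1, a gene of gonad formation and Sertoli cells, ran the other way, at 1.69, 2.25 and 1.76 FPKM across priSG-A against 0.153, 0.134 and 0.377 in pacSC.

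Among the remaining abundant members, Oip5os1 is the best known, under the name Cyrano, a conserved noncoding RNA that drives decay of the microRNA miR-7. It lies 2009 bases from the centromere gene Oip5 (chromosome 2, 119594297 to 119607502, 8306 exon bases) and shares no exon base with another gene. Oip5os1 stood at 16.6, 21.4 and 9.79 FPKM in priSG-A, at 27.4, 28.9 and 28.2 in priSG-B, at 19.5, 24.4 and 6.39 in plpSC, at 9.09, 9.10 and 4.21 in pacSC, at 16.1, 8.68 and 5.83 in rST and at 16.2, 6.60 and 8.89 in elST. The 3 priSG-B values were above all other libraries, and no library was below 4.21 FPKM.

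Rsf1os1, inside a chromatin remodelling gene, is listed at 0 in the 3 priSG-B libraries and stood at 103 and 77.95 FPKM in rST replicates 2 and 3, 32.01 in pacSC replicate 3 and 27.2 in plpSC replicate 3. Slfn5os and Aknaos, opposite a Schlafen-family gene and a centrosomal AT-hook gene, had those same 4 libraries among their 5 highest. Cep83os, beside a centriole gene, and Etaa1os, beside an activator of the replication stress kinase ATR, were instead highest in pacSC replicates 1 and 2 and elST replicate 3. Cep83os stood there at 29.3, 29.9 and 29.9 FPKM, against 1.97 in pacSC replicate 3. Etaa1os stood there at 40.6, 42.8 and 35.4 FPKM, against 13.2 in pacSC replicate 3.

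Several coding genes have more than 1 opposite-strand member: 34 genes carry 79 of them, and for 8 genes 2 or more members (17 in all) were above the line. Neighbours against 1 gene did not always run together. Along Ube4b, Ube4bos3 and Ube4bos2 were high in the same libraries (Pearson's r = 0.97 of log2(FPKM + 1) over the 18 libraries), whereas Ube4bos1, downstream of both on chromosome 4 at 149347885 to 149365277, ran opposite (r = -0.92 with Ube4bos3). Ube4bos1 stood at 1.26, 0.859 and 0.383 FPKM in priSG-A, at 0.667, 0.827 and 0.750 in priSG-B and at 0.0596 and 0.0268 in rST replicates 2 and 3, where Ube4bos3 was highest. These correlations describe libraries that share a split in makeup.

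Usp46os1 and Usp46os2 lie next to each other opposite the deubiquitinase gene Usp46 and had different libraries highest (r = 0.41). Usp46os1 was highest in rST replicate 3 (48.2 FPKM) and pacSC replicate 3 (46.8), while Usp46os2 had 25.1 and 25.8 FPKM in pacSC replicates 1 and 2, 25.1 in elST replicate 3 and 3.36 in pacSC replicate 3. Prkag2os1 and Prkag2os2, against a regulatory subunit gene of the energy sensor AMPK, differed as well (r = -0.66). Prkag2os1 was at 0.0183 FPKM or less in priSG-B and at 9.38 in pacSC replicate 3, and Prkag2os2 stood at 1.31, 1.28 and 1.19 FPKM in priSG-B and 0.410 in pacSC replicate 3. Kcnmb4os1 and Kcnmb4os2 (r = 0.93), and Sox5os3 and Sox5os1 (r = 0.94), ran together. For Rsf1os1 and Rsf1os2 r was 0.64, for the Tmem147os rows 0.48 and for Gssos1 and Gssos2 0.43. Exon bases shared with the partner were 1330 of 1585 in Sox5os1, 795 of 1432 in Prkag2os2 and 693 of 2025 in Kcnmb4os2. Ube4bos1 shared 452 of 2903, Ube4bos3 296 of 756 and Usp46os2 288 of 967. Prkag2os1 shared 142 of 991, Usp46os1 74 of 508, and Ube4bos2 and Sox5os3 0. Reads in shared bases cannot be told from the partner's.

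**Figure D5:**
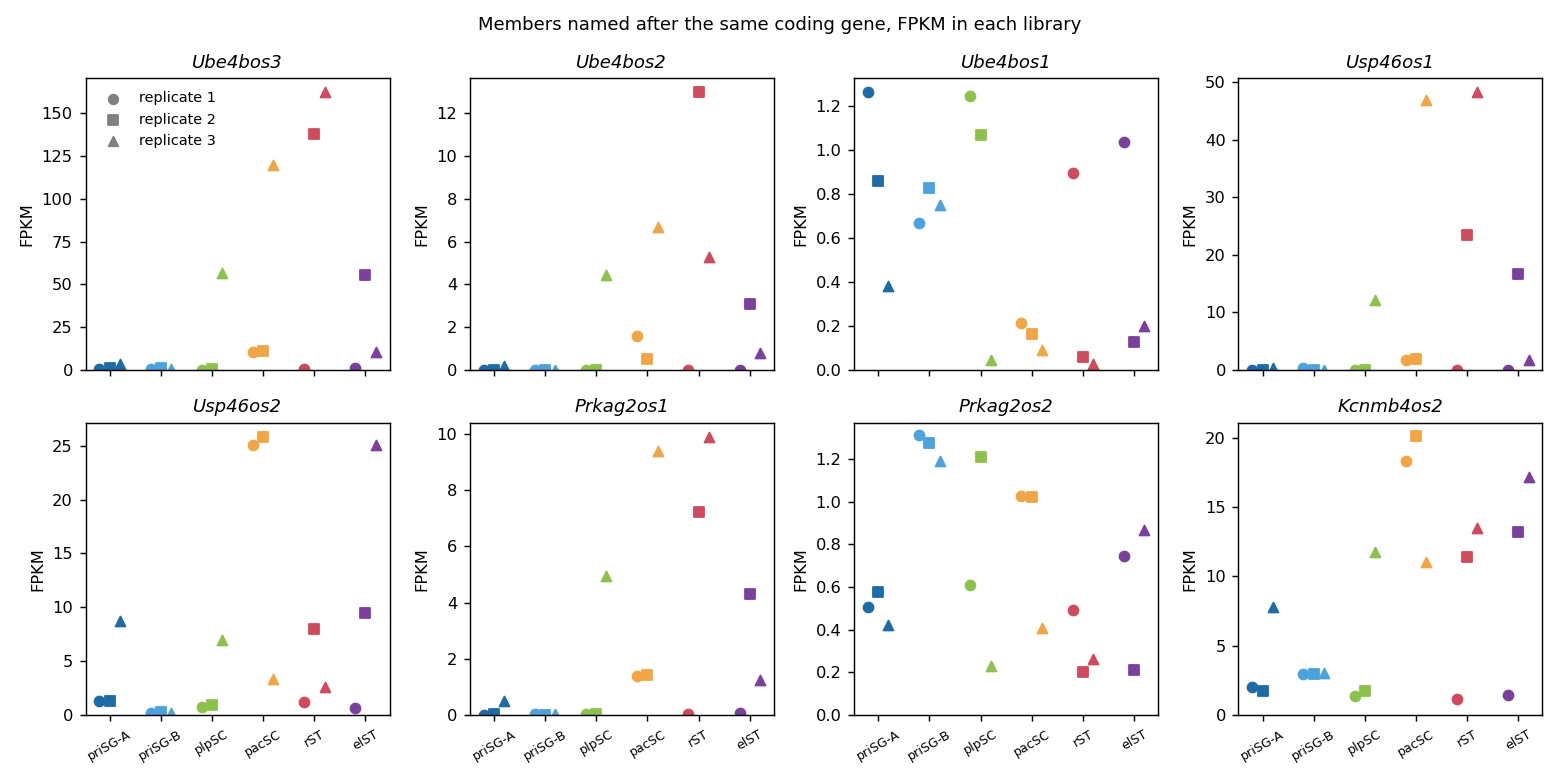
FPKM (y axis, linear, from 0, scaled per panel) of 8 members that share a coding partner with another member, in each library by labelled type (x axis), with the marker giving the replicate. Ube4bos1 is low in rST replicates 2 and 3, where Ube4bos3 and Ube4bos2 are high, and Usp46os2 peaks in pacSC replicates 1 and 2 and elST replicate 3, where Usp46os1 is below 2 FPKM.

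Successive types in order of age were then compared on log2(FPKM + 1) over all 4117 loci above the line, with limma and Benjamini-Hochberg adjustment. The scale understates the change of low genes. No member passed an adjusted p of 0.05 in priSG-B against priSG-A, where 0.68% of all loci did (0.656% higher, 0.0243% lower), nor in plpSC against priSG-B (1.26% of all loci, 0.0243% higher and 1.24% lower), nor in the 3 later comparisons, where 0% did. Limma without a variance trend and robust estimation also called 0 members in each. At an unadjusted p under 0.05, limma gave 4, 6, 19, 11 and 3 of the 125 members in the 5 comparisons in order of age, and 313, 315, 650, 372 and 78 of the 4117 loci. An F test for any difference among the 6 types called 0 members and 0.68% of loci. At an unadjusted p under 0.05 it gave 10 of the 125 members and 586 of the 4117 loci (14.2%).

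The median log2 fold change of the 125 members was -0.27 in priSG-B against priSG-A (all loci -0.21), 0.60 in plpSC against priSG-B (0.42), 0.81 in pacSC against plpSC (0.58), -0.31 in rST against pacSC (-0.35) and 0.05 in elST against rST (0.17). Comparisons that share a type share its libraries. Without the 5 libraries named below, the members' median was 0.33 in rST against pacSC, the opposite sign, while that of all loci was -0.19, and in pacSC against plpSC it was 1.21 (all loci 0.85). The member with the smallest p in priSG-B against priSG-A was Rap1gapos, inside the gene of a Rap1 GTPase activator, at 1.24, 2.11 and 1.98 FPKM against 0, 0.809 and 0.166. Its log2 fold change was 1.10 ± 0.31 (SE, limma adjusted p = 0.175). Fzd10os, which starts 151 bases from the Wnt receptor gene Fzd10, had it in plpSC against priSG-B, at 0.209, 0.419 and 0.0124 FPKM against 1.67, 1.92 and 2.43, that is -1.32 ± 0.33 in log2 fold change (limma adjusted p = 0.0781).

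In the later comparisons the smallest p belonged to Etaa1os, Bloc1s6os and N4bp2os. Etaa1os (chromosome 11, 17953970 to 17959578) had 40.6, 42.8 and 13.2 FPKM in the pacSC libraries against 1.70, 0.708 and 11.6 in plpSC, or 2.93 ± 1.04 as log2 fold change (SE, limma adjusted p = 0.305). Bloc1s6os, beside a gene of lysosome-related organelle formation, stood at 0.484, 0.591 and 0.295 FPKM in rST and 7.33, 6.20 and 0.509 in pacSC (-1.63 ± 0.62, limma adjusted p = 0.537). N4bp2os stood at 0.892, 1.07 and 1.14 FPKM in elST and 1.34, 5.06 and 3.67 in rST (-0.995 ± 0.46, limma adjusted p = 0.882). The libraries of the compared types were separate for Etaa1os and N4bp2os and overlapped for Bloc1s6os. Without plpSC replicate 3 the log2 fold change of Etaa1os was 3.78 (limma adjusted p = 0.0443). With a term for the split in AY036118 it was 1.54 (limma adjusted p = 0.559), and that of Bloc1s6os was -0.29.

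Counted by non-overlap of the 3 libraries of each type, with no test, 16 members were higher and 26 lower in priSG-B than in priSG-A (11.1% and 18% of all loci; 12.8% and 20.8% of the members). In plpSC 24 were higher and 12 lower than in priSG-B (12.5% and 10.9% of all loci, 19.2% and 9.60% of the members). PacSC had 8 higher and 0 lower than plpSC (5.39% and 2.43% of all loci). RST had 1 higher, Wt1os, and 11 lower than pacSC (0.632% and 11.7% of all loci), and elST had 3 higher and 1 lower than rST (4.25% and 0.243% of all loci). Etaa1os, Il1bos, Mccc1os, Phtf1os and Vax2os were higher in all 3 pacSC libraries than in any plpSC or rST library, and were singled out after their values were seen. The share of all loci with that pattern was not counted, so it has no background. In elST replicate 3, Mccc1os stood at 1.75 FPKM and Vax2os at 1.14, within their pacSC ranges. Phtf1os stood there at 4.94 FPKM, above its pacSC values.

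The 3 priSG-B libraries were each closest to another of the same label, and 6 of the 125 members were higher in each of these 3 than in all 15 other libraries (4.80%, against 5.95% of all loci). They were Rab26os, Oip5os1, Sp3os, Fzd10os, Kank4os and Rap1gapos. Lower there than in all other libraries were 11 members (8.80%, against 4.01% of all loci), among them Hoxd3os1, Arl4aos, Slfn5os, Ccdc34os, Usp46os2 and Lrp8os1. Sp3os, opposite the gene of the GC-box factor Sp3, stood at 9.86, 8.66 and 8.91 FPKM in the priSG-B libraries and 0.0550 and 0 in rST replicates 2 and 3. All 3 priSG-B libraries are low in AY036118 and no priSG-A or plpSC library is, so type and that difference cannot be told apart here.

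The comparisons were repeated without 5 libraries that stood apart, namely replicate 3 of priSG-A, of plpSC and of pacSC, and replicate 1 of rST and of elST. That choice was made from the profiles, so the spread within types is smaller by construction and the calls are not independent of it. Limma then called 7 members in priSG-B against priSG-A (3 higher, 4 lower, 5.60% of the members), where 10.9% of all loci were called (4.15% higher, 6.73% lower). In plpSC against priSG-B it also called 7 (3 higher, 4 lower), where 11.6% of all loci were called (7% higher, 4.59% lower). Fzd10os, Rap1gapos and Tmem147os (the locus at 30734739 to 30756126 on chromosome 7, all of whose 456 exon bases are shared with other annotated genes) were higher in priSG-B than in both neighbours, and Wt1os, Zeb2os and Pard3bos1 lower than in both, with the priSG-B libraries shared by the comparisons.

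In this fit the pacSC libraries left (replicates 1 and 2) had 7.44 and 7.25 FPKM of AY036118, against 7526 and 2307 in the plpSC libraries and 13911 and 6509 in the rST libraries. Type and that split therefore cannot be told apart in either pacSC comparison. In pacSC against plpSC the same fit called 88 of the 125 members (70.4%, against 71.2% of all loci), 76 higher (52.8% of all loci) and 12 lower (18.4%). The largest log2 fold changes belonged to Med9os (5.95 ± 0.36), Kcnmb4os1 (5.46 ± 0.28), Rbm46os (5.30 ± 0.35), Frs3os (5.28 ± 0.30) and Dgkeos (5.17 ± 0.37), each with 2 libraries a type. In rST against pacSC it called 82 (65.6%, against 58.3% of all loci), 48 higher and 34 lower (24.4% and 33.9% of all loci), led by Itpr3os (5.15 ± 0.65), opposite an inositol trisphosphate receptor gene, Slfn5os (4.20 ± 0.62) and Aknaos (3.93 ± 0.54), while Cep83os was lower (-3.75 ± 0.62). In elST against rST it called 58 (46.4%, against 41.7% of all loci), 25 higher and 33 lower (24.3% and 17.5% of all loci), with Itpr3os, Slfn5os and Rsf1os1 now lower (-3.70 ± 0.65, -3.05 ± 0.62 and -2.92 ± 0.47) and Cep83os higher (2.45 ± 0.62). The elST libraries in that fit stood at 4.01 and 29.9 FPKM for Cep83os. Leaving out plpSC replicate 3 alone gave 29 members in pacSC against plpSC (28.5% of all loci), 26 higher and 3 lower, led by Med9os.

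Other named antisense or overlapping transcripts of the table, with the 3 left-out names among them, gave 24 rows, of which 10 were above the line. Limma called 1 of these 10 higher in priSG-B than in priSG-A and 1 lower in plpSC than in priSG-B, Appbp2os in both cases, and 0 in the 3 later comparisons. Of the 290, the other 165 stayed below the line: 141 never reached 1 FPKM, 24 reached it in 1 or 2 libraries, and Cyp4x1os, Hnf4aos and Sox5os5 are listed at 0 throughout. Just inside the line by their third-highest library stood Bcas3os2 and Ctcflos (1.00074 and 1.00107 FPKM), and just outside Lrrc75aos1 and Lhx1os (0.979 and 0.978 FPKM). At the other end, 51 members reached 10 FPKM in some library, 43 of these with another library under 1 FPKM, and 11 were at 1 FPKM or more in all 18.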

How the data were processed

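RNA from 18 libraries of 6 germ cell types was deposited by the authors as 1 table of FPKM per locus. The submitters' processing notes name HISAT2 and StringTie with the mm10 build. The sources used here give no version, annotation, strand setting or FPKM denominator. Depth per library was inferred from FPKM steps of single-exon genes, where 98.4 to 99.4% of low values came out whole (tolerance 0.02; tested on simulated data); it was 31.7 to 92.2 M fragments and limits the precision near 1 FPKM.

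Values were tested as log2(FPKM + 1) with limma 3.58.1 in R 4.3.3 (trend and robust estimation, 1 coefficient per type, 18 libraries, two-sided, tested on simulated data), over the 4117 loci that reached 1 FPKM in 3 libraries. No count test was used, as the table holds no counts. Positions come from GENCODE M21, promoter windows from RefSeq. Tables used Python 3.11.15. The members, the lists and the rule for named genes (the 30 highest means, called members, the smallest p of each comparison and the edge of the filter) were chosen with earlier results of these data known. Other members named were chosen after their values were seen. Alternatives are given in the closing section.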

Additional observations from a re-analysis of the deposited data

How the results depend on the processing

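With all 18 libraries, 0 members were called in each of the 5 comparisons and by the F test, also with a pseudocount of 0.1, a filter of 5 FPKM, quantile normalization and limma without trend and robust estimation. With no filter on low values limma called 4 of 287 members in priSG-B against priSG-A, all higher (0.622% of all loci), 7 in plpSC against priSG-B, all lower (0.965%), and 6 by the F test (0.736%). A term for the split by the ribosomal RNA-derived locus gave calls in the opposite directions, of other members: 3, all lower, in priSG-B against priSG-A (3.4% of all loci), 1, higher, in plpSC against priSG-B (1.48%) and 2 by the F test (3.59%). The 6 libraries of the 2 types alone gave 1, higher, in priSG-B against priSG-A (3.76% of all loci). Without the 5 libraries that stood apart the counts were 7, 7, 88, 82 and 58 in order of age and 119 by the F test (95.2% of members, against 95.3% of all loci). Leaving out each library in turn gave 0 to 2 in plpSC against priSG-B (1 without rST replicate 1, 2 without elST replicate 1), 0 to 29 in pacSC against plpSC (29 without plpSC replicate 3, with 28.5% of all loci), 0 to 1 by the F test and 0 in the others. For the other left-out libraries the share of all loci was not counted, so their 1 or 2 members have no background to be read against. The cause of the differences between settings was not tested, except that fewer libraries enter some fits. The median log2 fold change of the members ran over the alternatives from 0.03 to 1.78 in pacSC against plpSC and from -0.78 to 0.33 in rST against pacSC. Quantile normalization moved the median log2 fold change of all loci from 0.58 to 0.03 in pacSC against plpSC and from -0.35 to 0.09 in rST against pacSC. The 5 fold changes given for the smallest p kept their sign in every alternative run, but not their side of the threshold. Their limma adjusted p ranged from 0.0321 to 0.784 for Rap1gapos, 0.0020 to 0.373 for Fzd10os, 1.55e-05 to 0.766 for Etaa1os, 0.000567 to 1 for Bloc1s6os and 0.00668 to 1 for N4bp2os. Of the members, 63 reached 5 FPKM in 3 libraries, against 125 at 1 FPKM. The replicate numbers were fitted as a replicate block, which called 0 members in each comparison. Same-numbered libraries deviated together in 25 of 45 pairs (correlation over 0.1, range -0.83 to 0.87). Pairs with different numbers were not counted, so this cannot tell whether the numbers pair the libraries. The main fit did not treat them as paired.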
